A study of Mus musculus with 61 samples.

Results

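The Notch pathway was followed through 10 genes in mouse pancreatic duct cells that had been made to express Ngn3. They were the ligand genes Dll1, Dll3, Dll4 and Jag1, the receptor genes Notch1 and Notch2, the fringe enzyme gene Mfng, and Hes1, Hes6 and Heyl of the Hes and Hey families. The genes were listed by name with earlier results of these data known, so the numbers called describe this list only. All 10 were found among the 46078 genes counted and among the 24004 that passed the filter on low counts and were tested.

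The cells were ductal organoids of C57BL/6 mice, which are three-dimensional cultures of duct epithelium. All groups came from cultures infected with lentiviral vectors for GFP-Ngn3, LSSOrange-Pdx1 and tdTomato-MafA, each induced by doxycycline, together with a Tet-On transactivator expressed from the PGK promoter. After 8 days of doxycycline, pools of 50 cells were sorted by their fluorescent reporters and sequenced. The Ngn3 cells were Ngn3-Pdx1, Ngn3-MafA and Ngn3-Pdx1-MafA cells, and the Ngn3-negative cells were Pdx1, MafA and Pdx1-MafA cells. Each of the 12 conditions was named for its culture, WT for cultures given wild-type Ngn3 and 6SA for cultures given its phospho-mutant form, so the Ngn3-negative cells of both kinds had grown beside Ngn3 cells and were not an uninfected control. Uninfected cells and cells with Ngn3 alone were not analysed here.

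Of 61 libraries, 58 passed the quality criteria, and technical repeats were summed to 32 samples, 17 of Ngn3 cells and 15 of Ngn3-negative cells, with 2 or 3 per condition. Replicates 1 and 2 were organoids at passage 2 and replicate 3 was at passage 5. The samples held between 2579583 and 19461008 counts on genes (median 8490758.5), and levels are given as CPM, counts scaled to a total of 1000000 after TMM normalization. On this scale 3 counts, taken as the limit of detection, corresponded to 0.154 to 1.16 CPM, and such limits cover counting error only. Neurog3, which encodes Ngn3, was at 0 to 0.788 CPM in the Ngn3-negative samples and at 7.87 to 329 CPM in the Ngn3 samples, with no overlap. Pdx1 was highest in Ngn3-Pdx1-MafA cells, at 30.8 to 191 CPM. Without Ngn3 it was at 11.2 to 37.7 CPM in Pdx1 cells, which overlapped MafA cells at 4.22 to 19.3. Mafa reached at most 12.7 CPM, with 0 to 35 counts in MafA and Pdx1-MafA samples and at most 1 in Pdx1 and Ngn3-Pdx1 samples. The partner labels rest on the sorted reporters, and these levels bear them out only in part. Reads of the vectors and of the mouse genes could not be told apart for these 3 genes. Duct markers (12 genes) summed to 2236 to 21641 CPM in Ngn3 cells and 16169 to 66064 CPM in Ngn3-negative cells, and endocrine markers (10 genes) to 488 to 13388 and 1.29 to 8.71 CPM. In pools of cells, fewer cells of a type and less RNA per cell cannot be told apart.

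Notch signalling passes between neighbouring cells. A Delta or Jagged ligand on one cell binds a Notch receptor on the next, the receptor is cut by ADAM proteases and γ-secretase, and its intracellular domain joins RBPJ and Mastermind-like proteins in the nucleus to switch on Hes and Hey repressor genes. Fringe enzymes add sugars to the receptor and alter which ligands it answers. In the developing pancreas, progenitors with active Notch keep Neurog3 off through Hes1, and cells with high Neurog3 express Dll1 and become endocrine cells, while the mature duct epithelium keeps Hes1, Notch and Jag1 expression.

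Averaged over the 3 partner sets, Dll4, Hes6 and Mfng were higher in Ngn3 cells and Jag1 and Notch2 were lower. By partner set, Mfng, Jag1 and Notch2 passed the test only beside Pdx1 and MafA together. By edgeR's quasi-likelihood test with Benjamini-Hochberg adjustment over all genes, these 5 and Dll3 had an adjusted p under 0.05. They were 6 of the 10 genes, 4 higher and 2 lower, where 21.5% of all genes tested were called, 11.1% higher and 10.5% lower. Dll3 had a count in only 3 of the 29 libraries without Ngn3 and so passed the filter on low counts, which asked for 5 libraries, through the Ngn3 libraries. Its call is therefore no support for a difference, and 5 calls remain without it. Each of the other members had a count in at least 9 libraries without Ngn3. The median log2 fold change of the 9 genes with a usable fit was 0.44, against 0.07 over all genes. It was the value of Notch1, with 4 genes on each side, so it did not depend on the fitted size for genes at 0 in whole conditions. Scaled by gene length, the mean levels in Ngn3-negative cells ran from Hes1 (52.1 CPM per kb) and Hes6 (41.4) through Jag1 (14.8), Dll1 (6.56), Notch2 (5.32) and Notch1 (2.22) to Dll4 (0.203), Mfng (0.135), Heyl (0.0695) and Dll3 (0.0146). In Ngn3 cells the order was Hes6 (149 CPM per kb), Hes1 (38.3), Jag1 (9.21), Dll4 (7.37), Dll1 (5.97), Mfng (4.65), Notch2 (3.87), Notch1 (3.07), Heyl (0.475) and Dll3 (0.151). Dll4 and Mfng, far below Dll1 without Ngn3, lay beside it with Ngn3, and these neighbours in the order did not differ beyond the spread between samples given for each gene.

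**Figure D1:**
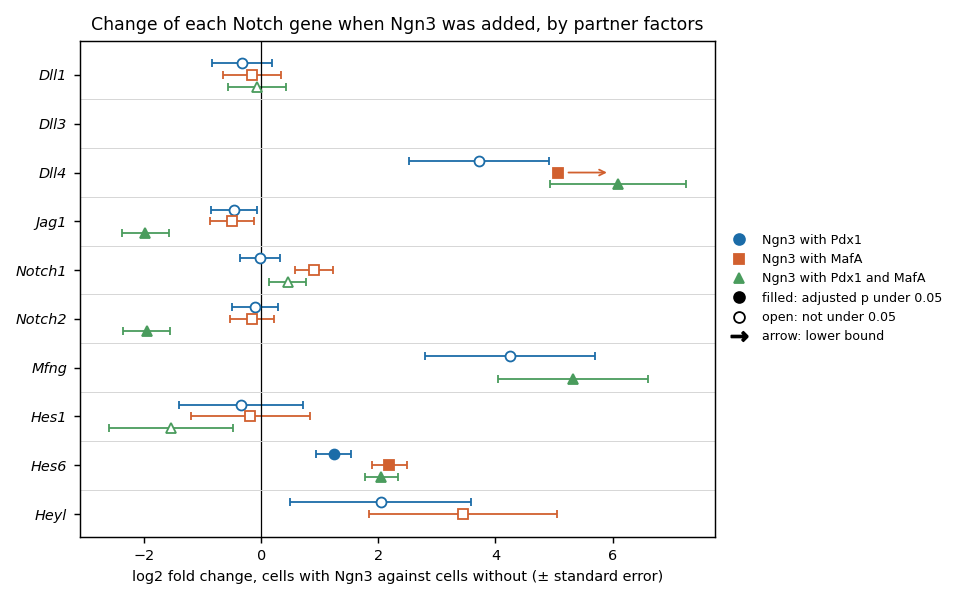
Log2 fold change (± standard error) of each gene between cells with and without Ngn3, by partner factors, from edgeR. Filled symbols had an adjusted p under 0.05, the arrow is a lower bound against samples without a count, and no point is drawn where the reference held 1 to 4 counts (Dll3, and Mfng with MafA) or the fold could not be fitted (Heyl with both). Hes6 is filled for all 3 partner sets, while Jag1 and Notch2 are filled only with Pdx1 and MafA together, at -1.98 and -1.96.

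Promoter sequences are shown for Dll4 and Hes6, which rose, and for Jag1 and Notch2, which fell, so that genes that moved in opposite directions can be read side by side. They are the 250 bases before the annotated start, 5′ to 3′ on the strand of the gene, from RefSeq on GRCm38.p6. Capitals mark E-boxes (CANNTG, the site bound by Ngn3 and other bHLH proteins) and C sites (CACGCG, a site bound by Hes proteins) on either strand.
Dll4: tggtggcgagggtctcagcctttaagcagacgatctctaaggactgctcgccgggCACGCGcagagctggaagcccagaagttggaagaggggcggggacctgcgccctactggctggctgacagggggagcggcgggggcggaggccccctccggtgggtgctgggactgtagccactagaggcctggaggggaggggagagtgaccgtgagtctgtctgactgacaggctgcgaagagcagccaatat
Jag1: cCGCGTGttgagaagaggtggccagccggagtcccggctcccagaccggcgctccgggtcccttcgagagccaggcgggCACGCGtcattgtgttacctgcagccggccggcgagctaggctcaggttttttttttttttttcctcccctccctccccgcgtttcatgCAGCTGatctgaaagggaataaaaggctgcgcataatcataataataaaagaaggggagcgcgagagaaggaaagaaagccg
Notch2: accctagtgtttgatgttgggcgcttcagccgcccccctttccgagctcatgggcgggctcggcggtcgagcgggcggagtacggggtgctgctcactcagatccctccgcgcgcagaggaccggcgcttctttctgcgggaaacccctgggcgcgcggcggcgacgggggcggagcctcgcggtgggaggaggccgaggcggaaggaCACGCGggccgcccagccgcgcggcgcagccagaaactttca
Hes6, first start: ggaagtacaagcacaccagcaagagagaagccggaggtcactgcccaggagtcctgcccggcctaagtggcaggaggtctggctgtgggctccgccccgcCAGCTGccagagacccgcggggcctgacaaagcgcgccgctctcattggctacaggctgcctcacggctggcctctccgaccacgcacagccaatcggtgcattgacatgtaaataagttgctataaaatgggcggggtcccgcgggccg
Hes6, second start: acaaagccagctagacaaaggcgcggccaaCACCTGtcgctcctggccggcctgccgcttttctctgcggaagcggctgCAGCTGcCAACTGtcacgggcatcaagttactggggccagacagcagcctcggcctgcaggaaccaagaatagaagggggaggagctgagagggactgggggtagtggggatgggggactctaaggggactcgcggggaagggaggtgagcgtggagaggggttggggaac
The Dll4 window lies at chr2:119325534-119325783 on the plus strand and held 1 C site and no E-box. The Jag1 window (chr2:137116521-137116770, minus strand) held 2 C sites and 1 E-box, and the Notch2 window (chr3:98013288-98013537, plus strand) held 1 C site and no E-box. Hes6 had 2 annotated starts in RefSeq. The window of the first (chr1:91413223-91413472, minus strand) held 1 E-box and that of the second (chr1:91414039-91414288, minus strand) held 3, and neither held a C site. TGGGAA, the core of the RBPJ motif, was in none of these windows, nor was CAGATG, a special case of CANNTG often bound by NeuroD and related proteins. Among 32851 promoter windows of the same length, 66.2% held CANNTG, 14.4% CAGATG, 21.6% TGGGAA and 7.62% CACGCG. The N box (CACNAG), held by 36.7% of all windows and not marked above, occurred once in the Dll4, the Notch2 and the first Hes6 window. A match is a run of letters and not a measured site. RefSeq windows for Hes1, Heyl and Mfng were not used here.

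Dll4, a Delta ligand best known from the tips of growing blood vessels, was the ligand gene with the clearest difference. It lies on chromosome 2 (GRCm38 119325784 to 119335962, plus strand). In Ngn3-negative cells 10 of 15 samples held no Dll4 count, the median was 0 and the highest level was 4.76 CPM. In Ngn3 cells the lowest level was 2.44 CPM, the median 21.2 and the highest 112, and 15 of 17 samples lay above every Ngn3-negative sample. The mean was 28.4 ± 26.5 CPM (SD, n = 17) against 0.784 ± 1.59 (n = 15), a ratio of 36.2, and the edgeR adjusted p was 2.75e-06. The fitted fold is not given because 2 of the reference conditions held no count.

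The mean of Dll4 was higher beside each partner, and the difference passed the test with MafA and with both. With MafA it was 18.1 ± 13.5 CPM (SD, n = 6) against no count in all 5 samples without Ngn3, at least 33.5-fold higher when the reference is set at 3 counts per sample (edgeR adjusted p = 0.00176). With Pdx1 and MafA the levels were 31.2, 31.7 and 18.7 CPM in WTNgn3-Pdx1-MafA cells and 58.7 and 28.1 in 6SANgn3-Pdx1-MafA cells, against 1.61, 0.174 and 0 and against 0.883, 0 and 0 in the Pdx1-MafA cells of the same cultures. The log2 fold change was 6.10 (SE 1.17, edgeR adjusted p = 0.000682). With Pdx1 the levels were 47.4, 11.5 and 2.95 CPM in WT cells and 112, 21.2 and 10.8 in 6SA cells, against 4.33 and 0 and against 4.76 and 0. These overlapped, the ratio of the means was 15.1, and the edgeR adjusted p was 0.142. That test did not pair samples by number. Over all partner sets Dll4 was higher with Ngn3 in all 14 comparisons of same-numbered samples. For replicate 1 Dll4 was at 15.2 to 112 CPM with Ngn3 and 0 to 4.76 without. For replicate 2 it was at 11.5 to 34.8 and 0 to 0.174, and for replicate 3 at 2.44 to 18.7 and 0 in each sample. How many of all genes separated within a partner set or replicate number was not counted. The highest Dll4 sample, replicate 1 of 6SANgn3-Pdx1 cells, also had the highest sum of 7 endothelial markers, 43.7 CPM, and replicate 1 of 6SANgn3-Pdx1-MafA cells, the second highest in Dll4, had the second highest sum, 32.6 CPM. Over all samples the sum was 0.782 to 43.7 CPM with Ngn3 (median 5.81) and 0 to 7.50 without (median 3.43). Kdr and Esam gave most of it, with up to 581 and 470 counts in a sample with Ngn3 and up to 0 and 124 without, Pecam1 had up to 53 and 5, and Cdh5, a defining gene, up to 3 and 0. The part of these markers in the Dll4 level was not tested. The Dll4 call held in all 43 alternative fits, of which 32 left out 1 sample each, with adjusted p of at most 0.00224. An antisense gene, Gm14207, overlaps Dll4 by 214 bases, and whether counting used strand is not given in the sources used here.

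Dll1, the Delta ligand that Ngn3 cells of the embryonic pancreas express, did not show such a difference. It was at 10.8 to 52.0 CPM in Ngn3-negative cells (median 26.0) and 6.14 to 59.0 CPM in Ngn3 cells (median 22.2). The second range took in the first, with 4 Ngn3 samples below and 2 above every Ngn3-negative sample. The mean was 25.2 ± 16.1 CPM (SD, n = 17) against 27.7 ± 12 (n = 15), with a log2 fold change of -0.19 (SE 0.29, edgeR adjusted p = 0.862). It was higher in 7 and lower in 7 of the 14 comparisons of same-numbered samples. Dll1 lies on chromosome 17 (15367354 to 15376872, minus strand), and A930024N18Rik overlaps it by 867 bases on the opposite strand. Per unit of gene length Dll1 stood near Dll4 in Ngn3 cells, and of the pair Dll4 passed the test of Ngn3 against Ngn3-negative cells and Dll1 did not.

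Dll3, a Delta family member that acts within the cell and is found in neuroendocrine cells, was near the limit of detection. It lies on chromosome 7 (28293553 to 28302238, minus strand). It had 0 to 4 counts in Ngn3-negative samples, 12 of which were at 0. In Ngn3 cells 8 of 17 samples were at 0 and the median was 0.136 CPM. The counts came mainly from 3 samples, replicate 2 of 6SANgn3-MafA cells with 24 counts (2.49 CPM) and the 2 samples of 6SANgn3-Pdx1-MafA cells with 31 and 9 counts (2.10 and 0.781 CPM). Of the libraries, 11 of 29 with Ngn3 and 3 of 29 without had a count. Since Dll3 passed the filter only through the Ngn3 libraries, the edgeR adjusted p over all conditions, 0.0346, is given as a value and not as support for a difference. It rose above 0.05 on leaving out 1 sample in 10 of 32 cases, namely WT Pdx1 replicate 1 or 2, 6SA Pdx1 replicate 1, WT MafA replicate 1, WTNgn3-Pdx1 replicate 2, 6SANgn3-Pdx1 replicate 1, WTNgn3-MafA replicate 3, 6SANgn3-MafA replicate 2, or replicate 1 of either kind of Ngn3-Pdx1-MafA cells, with values from 0.0510 to 1. It was also above 0.05 under 6 of 11 other settings, at 0.28 by DESeq2, 0.0672 with the replicate block within culture, and 1 by edgeR with the first technical repeat only and without all samples of replicate 1, of replicate 2 or of replicate 3.

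Jag1, the Jagged ligand of the duct epithelium, moved the opposite way to Dll4. It lies on chromosome 2 (137081456 to 137116644, minus strand). It was at 49.8 to 121 CPM in Ngn3-negative cells (median 80.4) and 7.64 to 131 CPM in Ngn3 cells (median 60.2), and 7 Ngn3 samples lay below every Ngn3-negative sample. The mean fell from 86.3 ± 21.7 CPM (SD, n = 15) to 53.7 ± 32.9 (n = 17), with a log2 fold change of -0.98 (SE 0.22, edgeR adjusted p = 0.00154), and it was lower in 12 of 14 comparisons of same-numbered samples. Of these 7 samples 4 had all 3 factors and 3 were replicate 1 of WTNgn3-Pdx1 (47.9 CPM), 6SANgn3-Pdx1 (16.5) and 6SANgn3-MafA cells (21.1). WTNgn3-Pdx1-MafA cells had 28.8, 15.8 and 71.5 CPM and 6SANgn3-Pdx1-MafA cells 14.6 and 7.64 CPM, where Pdx1-MafA cells had 105, 49.8 and 113 CPM in WT cultures and 80.4, 68.8 and 77.3 in 6SA cultures. In the 3-factor cells only replicate 3, at passage 5, reached the Ngn3-negative range. That sample had Neurog3 at 14.6 CPM, against 163 to 329 in the other 3-factor samples. The log2 fold change with Pdx1 and MafA was -1.98 (SE 0.40, edgeR adjusted p = 0.000906). With Pdx1 the means were 52.9 ± 19.5 CPM (n = 6) and 72.4 ± 13.1 (n = 4) with and without Ngn3, and with MafA 76.1 ± 35.6 (n = 6) and 102 ± 17.7 (n = 5). Neither difference passed the test, with edgeR adjusted p of 0.737 with Pdx1 and 0.613 with MafA.

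**Figure D2:**
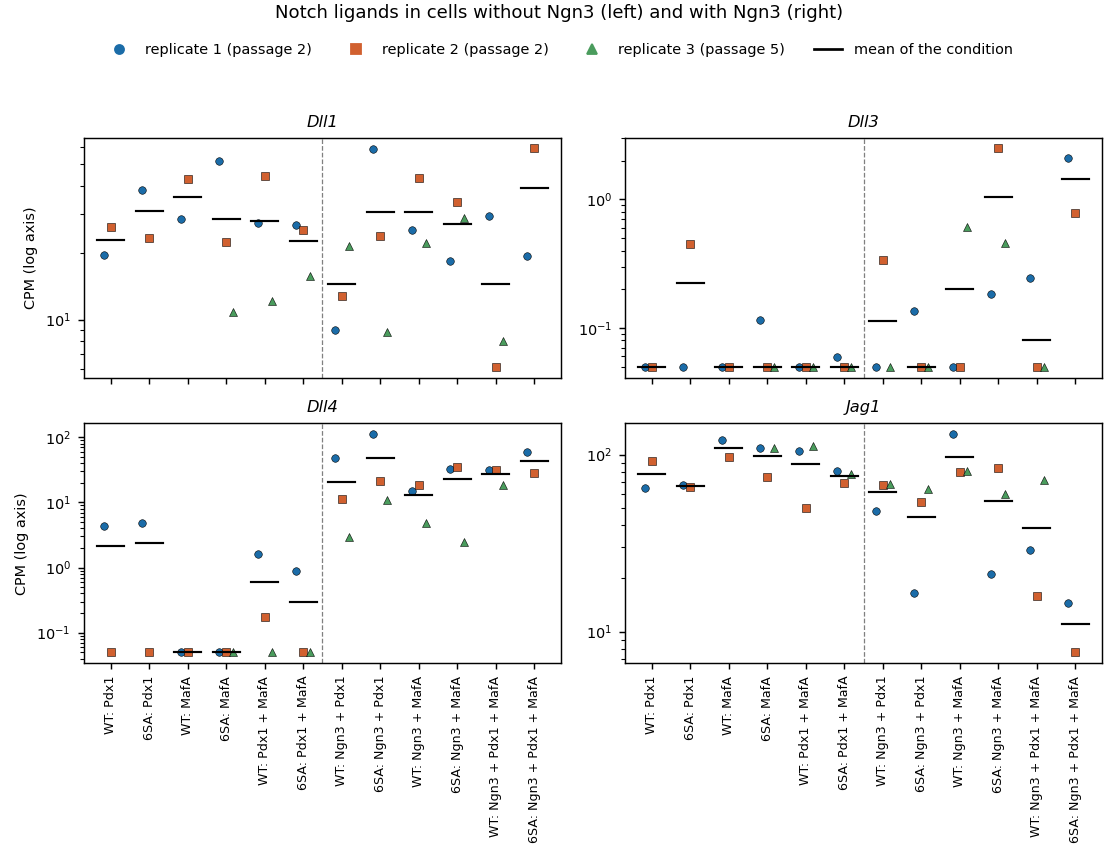
Levels of the 4 ligand genes (CPM, log axis) in each sample of the 12 conditions, without Ngn3 on the left and with Ngn3 on the right of the dashed line. Symbols give the replicate number, bars the mean of the condition, and values of 0 are drawn at 0.05. Dll4 lies at or below 4.76 CPM on the left and between 2.44 and 112 on the right, and Jag1 is lowest in Ngn3-Pdx1-MafA cells. Dll1 overlaps, at 10.8 to 52.0 CPM on the left and 6.14 to 59.0 on the right.

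The receptor genes went different ways. Notch2 (chromosome 3, 98013527 to 98150361, plus strand) was at 36.3 to 83.3 CPM in Ngn3-negative cells (median 52.9) and 7.73 to 87.7 CPM in Ngn3 cells (median 41.3), with 7 Ngn3 samples below every Ngn3-negative sample. The log2 fold change was -0.74 (SE 0.22, edgeR adjusted p = 0.0155), with lower levels in 9 of 14 comparisons of same-numbered samples. Of the 7 low samples 3 were replicate 1 of WTNgn3-Pdx1 (24.5 CPM), 6SANgn3-Pdx1 (23.0) and 6SANgn3-MafA cells (34.4), and 4 had all 3 factors. Cells with all 3 factors were at 12.7, 9.66 and 54.9 CPM in WT cultures and 7.73 and 9.72 in 6SA cultures, against 74.3, 50.0 and 46.7 and against 51.3, 73.8 and 52.9 CPM in Pdx1-MafA cells. Of the 3-factor samples all but that at passage 5 lay below the Ngn3-negative range, and the log2 fold change was -1.96 (SE 0.40, edgeR adjusted p = 0.00105). With Pdx1 alone as partner it was -0.11 (SE 0.40) and with MafA -0.16 (SE 0.38), each with an adjusted p of 1 by edgeR. Over all partner sets the call was lost without all samples of replicate 1 (adjusted p = 0.183) or of replicate 2 (0.192). Gm42820 overlaps Notch2 by 541 bases on the same strand.

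Notch1 (chromosome 2, 26457903 to 26516663, minus strand) was at 16.0 to 45.6 CPM in Ngn3-negative cells (median 34.5) and 20.2 to 76.0 in Ngn3 cells (median 41.4). The mean was 43.7 ± 16.7 CPM (SD, n = 17) against 31.6 ± 9.87 (n = 15), and 4 Ngn3 samples lay above every Ngn3-negative sample. The log2 fold change of 0.44 (SE 0.19) did not pass the edgeR test, with an adjusted p of 0.103. It did pass under 5 of 11 other settings, by DESeq2 (0.53, adjusted p = 0.0139) and by edgeR with RLE size factors (0.53, 0.039), with the replicate block (0.54, 0.0119), with the block within culture (0.52, 0.0218) and without all samples of replicate 1 (0.80, 0.0408), and also without replicate 1 of 6SA MafA cells (0.54, 0.0303). The largest change was with MafA, at 76.0, 42.3 and 41.4 CPM in WT cells and 41.5, 73.2 and 53.3 in 6SA cells (log2 fold change 0.90, SE 0.33, adjusted p = 0.131). In 3-factor cells Notch1 was at 30.4 to 74.9 CPM, where Notch2 was at 7.73 to 54.9. Genes on the opposite strand overlap Notch1 by 1389 bases.

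Mfng, a fringe enzyme encoded on chromosome 15 (78755882 to 78773475, minus strand), was almost silent without Ngn3. Of the 15 Ngn3-negative samples 9 held no count and the highest level was 1.65 CPM, while in Ngn3 cells the median was 8.51 CPM and the highest 57.9, with 11 of 17 samples above every Ngn3-negative sample and 2 at 0. The mean was 13.2 ± 16.5 CPM (SD, n = 17) against 0.383 ± 0.590 (n = 15), a ratio of 34.5, and the edgeR adjusted p was 0.000176. The highest levels were found with 3 factors. In Ngn3-Pdx1-MafA cells it was at 57.9, 41.0 and 8.51 CPM in WT cells and 31.9 and 10.9 in 6SA cells. Pdx1-MafA samples reached 1.65 CPM (log2 fold change 5.33, SE 1.28, edgeR adjusted p = 0.00453). In Ngn3-Pdx1 cells it was at 18.2, 0.674 and 1.15 CPM in WT cells and 19.8, 14.6 and 3.18 in 6SA cells, with an adjusted p of 0.175. In Ngn3-MafA cells it was lowest, at 0.0807, 0 and 1.51 CPM in WT cells and 9.90, 5.19 and 0 in 6SA cells, and overlapped the MafA samples. The difference between 3-factor and Ngn3-MafA cells missed the threshold, with an adjusted p of 0.0647.

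Hes6, a Hes family member that acts in favour of neurogenic factors rather than as a Notch effector, was the member with the lowest adjusted p. It lies on chromosome 1 (91411483 to 91414038, minus strand). All 17 Ngn3 samples, at 131 to 520 CPM (median 239), lay above all 15 Ngn3-negative samples, at 41.0 to 111 CPM (median 71.7). Of all genes tested, 0.542% were so separated with higher levels in Ngn3 cells. The mean was 269 ± 115 CPM (SD, n = 17) against 74.8 ± 17.3 (n = 15), with a log2 fold change of 1.83 (SE 0.17, edgeR adjusted p = 7.42e-09). The groups were also apart within each partner set, a separation that was not counted over all genes. The log2 fold change was 1.24 (SE 0.30, adjusted p = 0.0316) with Pdx1, 2.19 (SE 0.30, 3.52e-05) with MafA and 2.05 (SE 0.28, 9.89e-06) with both. The call with Pdx1 was lost on leaving out any of the 4 Pdx1 samples, WTNgn3-Pdx1 replicate 1 or 3, or 6SANgn3-Pdx1 replicate 2, with adjusted p of 0.0540 to 0.204.

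Hes1, the repressor through which Notch holds Neurog3 off, had medians that differed by replicate number, with ranges that overlapped. It lies on chromosome 16 (30064384 to 30067796, plus strand). It was at 4.80 to 33.4 CPM in replicate 1 (median 23.0), 0.732 to 377 in replicate 2 (median 183) and 18.6 to 80.4 in replicate 3 (median 62.3). Within each number the Ngn3 and Ngn3-negative ranges overlapped. Ngn3 cells had a mean of 78.1 ± 92.3 CPM (SD, n = 17) and Ngn3-negative cells 106 ± 104 (n = 15), with a log2 fold change of -0.69 (SE 0.60, edgeR adjusted p = 0.541), and lower levels in 10 of 14 comparisons of same-numbered samples. With the replicate block it was -0.57 (edgeR adjusted p = 0.25). Of 11 other settings 1 passed the test, edgeR with no gene filter (-0.67, adjusted p = 0.00766). In 3-factor cells it was at 16.4, 0.732 and 71.5 CPM in WT cells and 6.04 and 43.3 in 6SA cells (log2 fold change -1.54, SE 1.06, adjusted p = 0.345). The technical repeats of one sample also differed, in Ngn3 cells by a median of 5.07-fold between the highest and the lowest repeat (8 samples), against 1.52-fold in Ngn3-negative cells (9 samples). In a test of any difference among the 3 replicate numbers, chosen after seeing the data, Hes1 had an edgeR adjusted p of 9.24e-06, and 4 of the 10 genes were called (Hes1, Dll4, Mfng and Notch1), where 28.1% of all genes were.

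Heyl, a Hey family repressor expressed in vascular muscle and encoded on chromosome 4 (123233556 to 123249875, plus strand), was at 0 in 8 of 15 Ngn3-negative samples, and the others reached 2.43 CPM. In Ngn3 cells 9 of 17 samples were at 0, among them all 5 samples with the 3 factors. The highest levels were 22.9 CPM (284 counts) in replicate 1 of WTNgn3-MafA cells and 8.25 CPM (182 counts) in replicate 1 of 6SANgn3-Pdx1 cells. The first of these samples also had the highest sum of mesenchyme and pericyte markers, 281 CPM with 188 from Col1a2 and 89.9 from Col1a1, against at most 21.4 in any other sample, and the part of those cells in the Heyl level was not tested. The Ngn3 effect over all conditions could not be fitted for Heyl, and none of its tests by partner set that could be fitted passed the threshold.

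**Figure D3:**
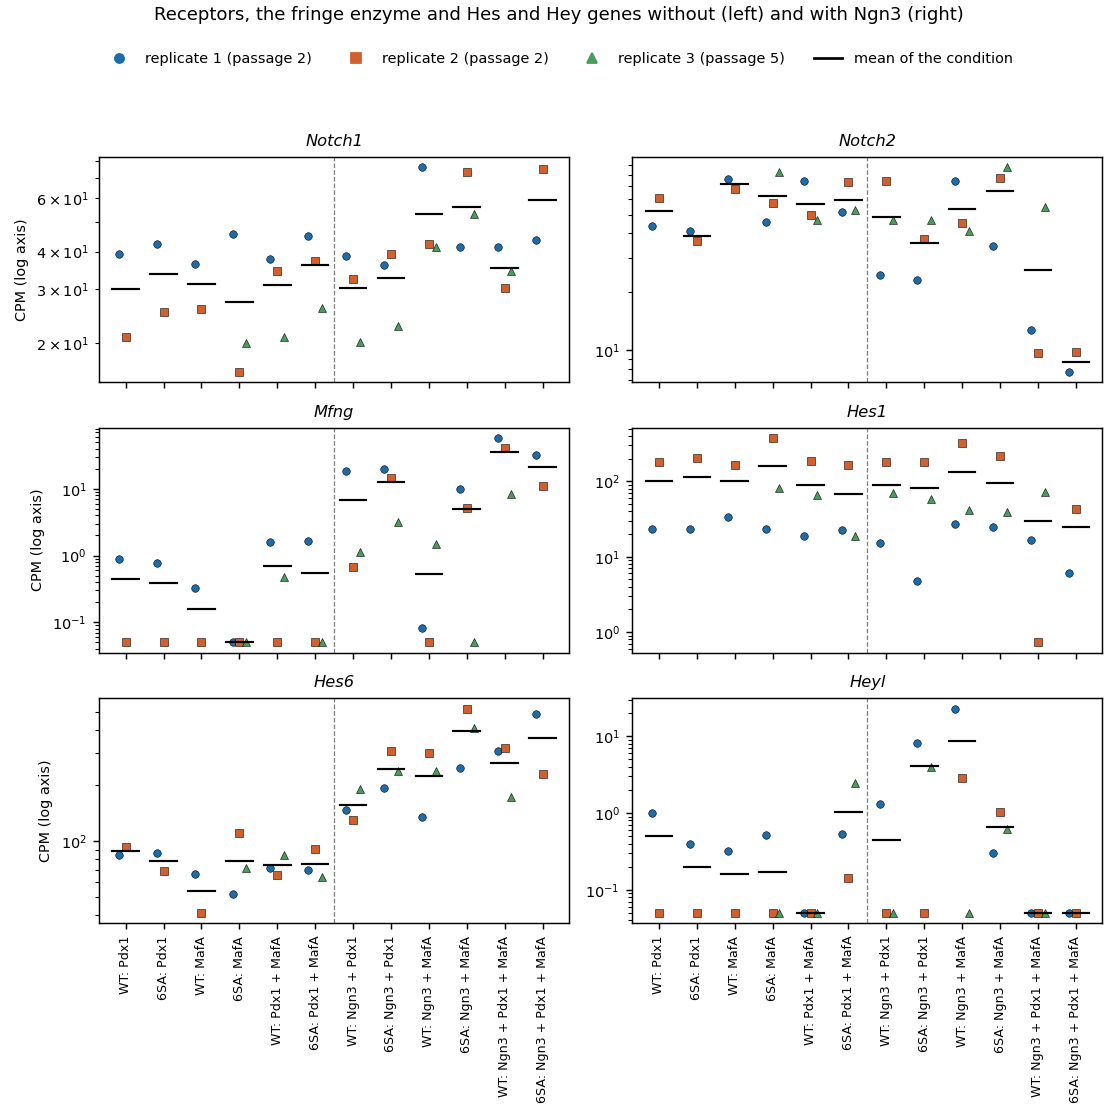
Levels of the receptor, fringe, Hes and Hey genes (CPM, log axis) in each sample of the 12 conditions, laid out as for the ligands, with values of 0 drawn at 0.05. Hes6 does not overlap between the left (41.0 to 111 CPM) and the right (131 to 520), and Notch2 drops in 4 of 5 Ngn3-Pdx1-MafA samples. The medians of Hes1 differ by replicate number, with overlapping ranges.

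By partner set, 1 of the 10 genes was called when Ngn3 was added to Pdx1 (Hes6), where 1.49% of all genes were called. With MafA it was 2 (Dll4 and Hes6), against 4.67% of all genes, and with both it was 5 (Dll4, Hes6 and Mfng higher, Jag1 and Notch2 lower), where 17.8% of all genes were called, 9.42% higher and 8.4% lower. Whether the effect of Ngn3 differed between partner sets was tested directly. No member passed this test in edgeR, where 0.0333% of all genes did, and 3 members had an unadjusted p under 0.05, as did 7.64% of all genes. Notch2 had an adjusted p of 0.306 and Jag1 0.484.

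Among Ngn3 cells, the 3-factor cells had less Notch2 than Ngn3-MafA cells (log2 fold change -1.99, SE 0.40, edgeR adjusted p = 0.00742) and less Jag1 (-1.82, SE 0.40, 0.0135). These were the 2 members called in that comparison, where 2.72% of all genes were, 1.56% lower. Leaving out replicate 2 of 6SANgn3-Pdx1-MafA cells raised the adjusted p of Jag1 to 0.0806, and leaving out replicate 1 raised that of Notch2 to 0.0747. Against Ngn3-Pdx1 cells Notch2 was lower by the same test (-1.47, SE 0.39, adjusted p = 0.0472; 1.88% of all genes called, 1.35% lower), while Jag1 was not past the threshold (-1.33, SE 0.39, 0.0772). This Notch2 call was lost in 25 of the 32 fits that left out 1 sample, and held without 6SA MafA replicate 3, 6SA Pdx1-MafA replicate 2, WTNgn3-Pdx1, 6SANgn3-Pdx1, WTNgn3-MafA or 6SANgn3-MafA replicate 1, or WTNgn3-Pdx1-MafA replicate 3. Ngn3-Pdx1 and Ngn3-MafA cells differed in none of the 10 genes by edgeR (0.133% of all genes called), with 3 at an unadjusted p under 0.05, as were 8.6% of all genes, and 0 called by DESeq2. Among the 6 Ngn3-negative conditions none of the 10 differed by edgeR (0.00417% of all genes called), with 1 at an unadjusted p under 0.05, as were 1.69% of all genes. In the test of any difference among the 6 Ngn3 conditions edgeR also called none of the 10 (0.754% of all genes called), with 5 at an unadjusted p under 0.05, as were 11.1% of all genes, and Jag1 (0.111) and Notch2 (0.116) had adjusted p above the threshold.

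Duct marker genes fell in Ngn3 cells too, also where Jag1 and Notch2 did not pass the test. Of the 12 duct genes 8 were lower in Ngn3 cells by the same test, where 10.5% of all genes were. The sums of the 12 were 3990 to 21641 CPM with Ngn3 and 16169 to 33517 without beside Pdx1. They were 4030 to 10088 and 21466 to 66064 beside MafA, and 2236 to 5370 and 16360 to 31227 beside both. Replicate 3 of WTNgn3-Pdx1-MafA cells had a sum of 5370 CPM, with Jag1 at 71.5 and Notch2 at 54.9. The share of duct cells in the change of Jag1 and Notch2 was not tested.

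Wild-type and phospho-mutant Ngn3 were compared next, since phosphorylation is known to restrain Ngn3. In WT cultures Dll4 was at 2.95 to 47.4 CPM in Ngn3 cells and 0 to 4.33 without (edgeR adjusted p = 0.0022), and Hes6 rose by a log2 fold change of 1.57 (SE 0.24, 7.55e-05). These were the 2 members called, where 8.59% of all genes were. In 6SA cultures 5 were called, 3 higher and 2 lower, where 14.1% of all genes were, 8.12% higher and 5.98% lower. Dll4 was at 2.44 to 112 CPM against 0 to 4.76 (adjusted p = 0.000184), Hes6 rose by 2.08 (SE 0.24, 9.36e-07), Mfng had a median of 10.4 CPM against 0 (0.00201), and Jag1 (-1.39, SE 0.32, 0.00352) and Notch2 (-0.93, SE 0.32, 0.0489) were lower. The Notch2 call in 6SA cultures was lost in 23 of 32 fits that left out 1 sample (adjusted p up to 0.13) and held without 6SA MafA replicate 1, WTNgn3-Pdx1 replicate 1 or 2, 6SANgn3-Pdx1 replicate 3, WTNgn3-MafA replicate 1, 6SANgn3-MafA replicate 3 or any of the WTNgn3-Pdx1-MafA samples.

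The effect of Ngn3 was not shown to differ between the forms. In the test of the interaction edgeR called none of the 24004 genes (0%), with 647 genes (2.7%) but none of the 10 at an unadjusted p under 0.05, and DESeq2 called 5 genes and none of the 10. The interaction was -0.82 (SE 0.44) for Jag1 and 0.51 (SE 0.33) for Hes6 on the log2 scale. In the direct comparison of 6SANgn3 with WTNgn3 cells edgeR also called no gene (0%), with 1421 genes (5.92%) at an unadjusted p under 0.05, 2 of the 10 among them. Hes6 was 0.63 higher (SE 0.22) and Jag1 1.02 lower on the log2 scale (SE 0.31), both with an adjusted p of 0.78. DESeq2 called 26 genes here and none of the 10. Between Ngn3-negative cells of the 2 kinds of culture edgeR called no gene (0%), with 591 (2.46%) but none of the 10 at an unadjusted p under 0.05, and DESeq2 called 8 and none of the 10.

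The level of Ngn3 itself varied between samples, and the members were set against it within the Ngn3 conditions. Dll4 rose by 0.69 on the log2 scale for each doubling of Neurog3 (SE 0.19, edgeR adjusted p = 0.0469), and was the 1 member called, where 3.42% of all genes were. Jag1 (-0.41, SE 0.12, 0.0592) and Notch2 (-0.39, SE 0.12, 0.0736) had slopes below 0 that missed the threshold, and Hes6 had a slope of -0.01 (SE 0.10). Neurog3 also moved with the replicate number, at 53.6 to 226 CPM in replicate 1, 34.9 to 329 in replicate 2 and 7.87 to 38.8 in replicate 3. With the replicate number in the model the Dll4 slope was 0.16 with an adjusted p of 1. The call was lost too on leaving out any of the 6 Ngn3-Pdx1 samples, replicate 3 of WTNgn3-MafA, replicate 1 or 3 of 6SANgn3-MafA or replicate 2 of WTNgn3-Pdx1-MafA cells, with adjusted p of 0.0503 to 0.21.

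**Figure D4:**
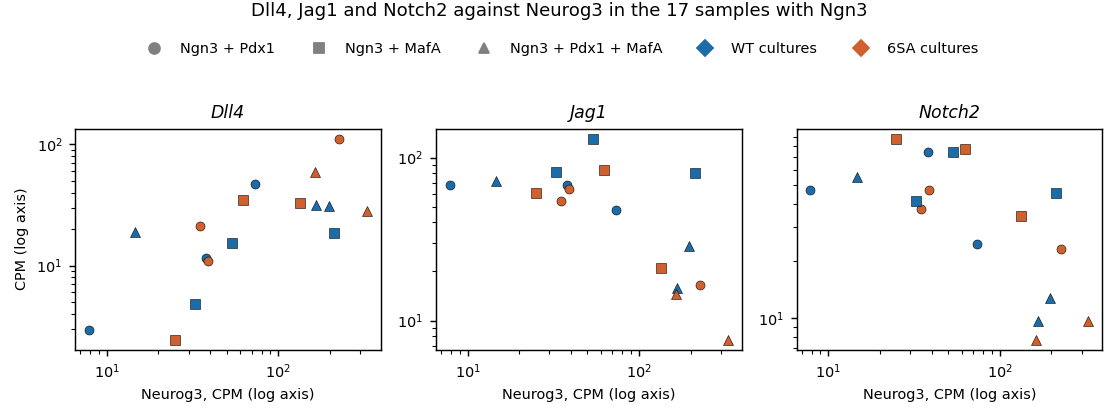
Dll4, Jag1 and Notch2 (CPM, log axis) against Neurog3 (CPM, log axis) in the 17 samples with Ngn3, with symbols for the partner factors and colours for the culture. Dll4 is lowest (2.44 and 2.95 CPM) in samples of replicate 3 with little Neurog3, and Jag1 and Notch2 are lowest (7.64 and 7.73 CPM) in 3-factor samples.

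Samples of passage 5 differed from those of passage 2 with the condition in the model. Dll4 was lower at passage 5 by 2.51 on the log2 scale (SE 0.73, edgeR adjusted p = 0.036) and was the 1 member called, where 8.16% of all genes were and the median of all genes was -0.26. Neurog3 fell by 2.39 (SE 0.40, 0.00111) in the same contrast. Passage 5 was replicate 3 alone, so passage and replicate cannot be told apart. The Dll4 call was lost on leaving out any sample of replicate 3 other than that of 6SA MafA or WTNgn3-Pdx1-MafA cells, or replicate 1 of either kind of Ngn3-Pdx1 cells, with adjusted p up to 0.0943.

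The other genes of the pathway were 49 genes of a list, of which 47 were tested and Hes2 and Hes3 were not. In the comparison of Ngn3 with Ngn3-negative cells 12 were called, 8 higher and 4 lower, where 21.5% of all genes were, 11.1% higher and 10.5% lower. Among ligands, Jag2 had 5.58 to 86.6 CPM in Ngn3 cells (median 23.9) and 1.32 to 18.6 without (median 8.38), and rose by a log2 fold change of 1.94 (SE 0.38, edgeR adjusted p = 0.000359). Dner, a non-canonical ligand of neurons, did not overlap, at 3.44 to 139 CPM against 0 to 1.89 (edgeR adjusted p = 2.28e-10). Of all genes tested, 0.542% were so separated with higher levels in Ngn3 cells. Jag2 and Dner were both higher in all 14 comparisons of same-numbered samples. Jag2 thus rose where Jag1 fell.

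Along the rest of the pathway, Neurl1a, a ubiquitin ligase of ligand endocytosis, rose by 3.00 (SE 0.50, edgeR adjusted p = 5.37e-05) on the log2 scale, and Pofut1, which adds O-fucose to Notch, by 0.84 (SE 0.18, 0.00112). The sheddases Adam10 (-0.68, SE 0.13, 0.000303) and Adam17 (-0.63, SE 0.19, 0.016) were lower and the γ-secretase subunit gene Psen2 was higher (0.67, SE 0.23, 0.0347). Of the co-activators Maml3 rose (0.97, SE 0.23, 0.00254) and Maml2 fell (-1.07, SE 0.33, 0.0203). Of the inhibitors, Numbl (2.53, SE 0.36, 6.77e-06) and Fbxw7 (0.87, SE 0.17, 0.000249), which marks the Notch intracellular domain for degradation, were higher, and Numb (-0.51, SE 0.19, 0.0494) was lower. The median log2 fold change over the 47 genes was 0.20, against 0.07 over all genes. By partner set 1, 2 and 13 of the 47 were called with Pdx1, with MafA and with both, where 1.49%, 4.67% and 17.8% of all genes were. In WT and 6SA cultures 5 and 8 were called, where 8.59% and 14.1% of all genes were.

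For each called member the genes with the most similar levels were found by Pearson's correlation of log2(CPM + 1) over all 32 samples, among 11908 genes. These correlations run over samples that differ in Ngn3, depth and replicate number, and are a description. They were Clip3 (0.977), Pde1c (0.973) and Cplx2 (0.964) for Dll4, Rab3a (0.919), Fam151a (0.912) and Lrrn2 (0.91) for Mfng, Pcsk1n (0.911), Cpe (0.885) and Cbfa2t3 (0.879) for Hes6, and Arhgap39 (0.718), Pheta1 (0.652) and Rprml (0.63) for Dll3. Jag1 was closest to Cdk6 (0.892), Socs2 (0.878) and Ajuba (0.878), and Notch2 to Cdk6 (0.915), Socs2 (0.904) and Skil (0.896), so the members that fell shared 2 of their 3 closest genes.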

How the data were processed

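RNA sequencing libraries of 50-cell pools were analysed. Per the submitters' processing notes the reads were aligned to mm10 with GSNAP and counted with HTSeq (0.5.3p3), and the authors deposited raw counts for each gene and library. Counts on no gene, 33.9% to 67.3% of reads, stayed out of the totals. Libraries needed under 25% spike-in counts, over 1000000 gene counts and over 10000 detected genes, and 3 failed. Tests ran on genes with a count in 5 or more libraries whose log2(CPM + 1) varied by more than 0.001, a scale taken here since the methods name none. Gene positions, lengths and overlaps are from an annotation of GRCm38, and 45143 identifiers matched a symbol.

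One model of the 12 conditions was fitted in edgeR 4.0.16 (R 4.3.3) with TMM, trended dispersion and the quasi-likelihood test in its legacy form, all two-sided. Contrasts averaged over conditions, and the Neurog3 slope and passage were added as terms. Where nothing in the labels ties samples to separate animals, p-values measure the spread between these samples. The members, marker lists and pathway list were chosen with earlier results of these data known. The genes named were the members, Neurog3, Pdx1 and Mafa, the pathway genes called in the contrast over all conditions, and for each called member the 3 genes with the highest correlation among genes with a mean log2(CPM + 1) of at least 2. Hes5 and Dtx1 were chosen after their values were seen.

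Same-numbered samples of one partner set and culture deviated together with a correlation of -0.387 to 0.746 (median 0.338), over 0.1 in 12 of 14 pairs. Differently numbered samples of different conditions had a median of -0.246. The labels do not say whether same-numbered samples share an infection or animal. The main model left the number out, so its p-values take no account of this likeness, and a replicate block was run as an alternative. The alternatives were RLE size factors, filterByExpr, no gene filter, all libraries, the first technical repeat, a replicate block, the conditions compared alone, DESeq2 1.42.0, and leaving out each sample or replicate number. Fits without 1 sample kept the dispersion trend of the full fit. On simulated data of 24004 genes, the edgeR test of Ngn3 over all conditions found 48% of 2-fold and 95% of 4-fold changes with 18 false calls, and DESeq2 found 60% and 99% with 54.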

Additional observations from a re-analysis of the deposited data

Results flagged for a closer look

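Of the 3 libraries left out for their low totals, all were of Ngn3-Pdx1-MafA cells and were in no comparison. Members above the highest library of Ngn3-negative cells were found in each of them (CPM on the library's own gene total, few counts). In technical repeat 1 of WT replicate 2, Dll4 was at 28.8 CPM (18 counts) where the highest library without Ngn3 had 9.90, Hes6 at 174 CPM (109 counts) where it had 110, and Mfng at 16.0 CPM (10 counts) where it had 4.51. In technical repeat 2 of 6SA replicate 2, Dll4 was at 29 CPM (7 counts), Hes6 at 228 CPM (55 counts) and Mfng at 20.7 CPM (5 counts). In technical repeat 1 of 6SA replicate 3, the only library of that sample, Hes6 was at 193 CPM (79 counts) and Hes1 at 604 CPM (247 counts), where the highest library without Ngn3 had 349. With these libraries kept, Dll4, Hes6 and Mfng passed the edgeR test over all conditions as before (adjusted p = 1.61e-06, 6.91e-09 and 0.000194), and Hes1 had a log2 fold change of -0.14 in place of -0.69, past the threshold in neither. The conditions had 2 or 3 samples, too few to look for single samples far from the others.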

How the results depend on the processing

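In the comparison of Ngn3 with Ngn3-negative cells over all conditions, 4 to 7 members were called under 11 other settings and 5 to 7 on leaving out 1 sample, and the direction of each fitted member was the same throughout. Dll4, Jag1, Hes6 and Mfng kept their calls in all 43 fits. The replicate block added the replicate number to the model. It gave 3 members with Pdx1 and 4 with MafA, 3 and 4 for 3 factors against Ngn3-Pdx1 and Ngn3-MafA, 2 among the Ngn3 conditions and 0 for the Neurog3 slope. Of 32 samples 28 deviated most like those of their own number. The block within culture gave 3 members with Pdx1 and 5 with MafA.

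With Pdx1 (1 member called) there were 3 with no gene filter, 3 with DESeq2, 0 with the first technical repeat, and 0 to 2 on leaving out samples or replicate numbers. With MafA (2) DESeq2 called 4, and leaving out samples or numbers gave 1 to 3. Without replicate 2, 2 were called with both partners (5 with all samples), 0 in WT cultures (2) and 2 in 6SA cultures (5). For 3 factors against Ngn3-Pdx1 (1) no filter called 4, DESeq2 3, and the first repeat and the conditions compared alone 0, with 0 to 2 on leaving out. Against Ngn3-MafA (2) it was 5 with no filter, 4 with DESeq2, 4 with the conditions alone, 1 with the first repeat, and 0 to 4. Where no member was called, no filter gave 1 for 6SANgn3 against WTNgn3 cells, 1 for Ngn3-Pdx1 against Ngn3-MafA, 2 for the test by partner set (0 to 1 on leaving out), 1 among Ngn3-negative and 5 among Ngn3 conditions (0 to 2). For the Neurog3 slope (1) RLE and filterByExpr gave 0, no filter 2, all libraries 3, and leaving out 0 to 5. For passage (1) no filter gave 3, the test among replicate numbers, chosen after seeing the data, 4, and leaving out 0 to 1. The cause was not tested. Of the fits for single members 1112 kept the side of the threshold, 120 lost it and 7 passed it. Fits without replicate 2 had few samples, and counts near 0 (Dll3, Heyl, and Dll4 and Mfng without Ngn3) limit what depth can show.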

Other observations

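In cells with all 3 factors, 13 of the 47 other pathway genes tested were called against Pdx1-MafA cells, 10 higher and 3 lower, where 17.8% of all genes were called, 9.42% higher and 8.4% lower. Hes5 and Dtx1 are described here after their values were seen, and their levels are given with no test. Hes5 had a count in 9 of 29 libraries with Ngn3 and in 0 of 29 without, so it passed the filter on low counts only through Ngn3 cells, and its call among the 13 is no support for a difference. Hes5, a direct Notch target of neural progenitors, had no count in the 15 Ngn3-negative samples and none in Ngn3-MafA cells, and reached 33.5 CPM in WTNgn3-Pdx1-MafA cells, with a mean of 12.5 ± 18.3 CPM (SD, n = 3), and 23.3 CPM in 6SANgn3-Pdx1-MafA cells, where the other sample had 4 counts. Dtx1, a ubiquitin ligase that binds Notch, was at 0.532 to 21.1 CPM in WTNgn3-Pdx1-MafA cells and 9.38 to 15.5 in 6SANgn3-Pdx1-MafA cells, against at most 2.05 CPM in Pdx1-MafA cells, and reached 1.10 CPM in Ngn3-MafA cells. Neither gene was particular to 3-factor cells, since Ngn3-Pdx1 cells shared in it. Of 17 Ngn3 samples 6 held a Hes5 count and 5 had more Dtx1 than every Ngn3-negative sample, in both cases not all with 3 factors.

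Technical repeats of one sample differed more for some members than for others. In Ngn3 cells the highest repeat exceeded the lowest by a median of 1.56-fold for Hes6, 1.60-fold for Jag1, 1.90-fold for Dll4 and 2.69-fold for Dll1 (8 samples each), and by up to 8.71-fold, 4.54-fold, 9.93-fold and 18.6-fold. In Ngn3-negative cells the medians were 1.43-fold for Hes6, 1.39-fold for Jag1 and 1.98-fold for Dll1 (9 samples each).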
